A study of Mus musculus with 12 samples.

Results

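Pleiotrophin (Ptn), midkine (Mdk) and the chemokine Cxcl12 are secreted signals, and their main receptors on the cell surface are Ptprz1, Sdc3 and Alk for the first pair and Cxcr4 and Ackr3 for Cxcl12. These 8 genes, of 54752 in the deposited count table, were followed across poly(A) RNA-seq libraries of mouse cerebellar cortex from 3 diets. They were listed by symbol for their pathway, with earlier results of these data known. Ptn and Cxcl12 were picked because their levels were lower on dietary restriction. For that reason Ptn and Cxcl12 are described without a test in every comparison, and the 6 other genes were tested.

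All mice were wild-type (WT) males of the F1 hybrid strain C57BL6J/FVB, sampled at 12 weeks. Ad libitum (AL) mice had free access to food. Dietary restriction (DR) mice received a reduced daily portion just before the dark period. AL and DR mice were both killed early in that period, within the same window of some hours, the DR mice without their last meal. The third group received a ketogenic diet (KD), whose composition and starting age were not given in the sources used here. Each diet had 4 libraries, numbered here in accession order, and the AL and DR samples had been selected for RNA quality from a larger number of mice. Whole cortex of several folia, without the cerebellar nuclei, was dissected, so every level is a mean over the cell types in the piece. Nothing in the labels ties samples to litters, cages or preparation days, so p-values measure the spread between these samples.

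Ptn and Mdk form a small family of heparin-binding growth factors. They bind the chondroitin sulfate chains of Ptprz1, a receptor-type tyrosine phosphatase of glia whose activity is inhibited by Ptn, and the heparan sulfate chains of Sdc3 (syndecan-3). The receptor tyrosine kinase Alk takes part in signalling by both growth factors. In the developing cerebellum, signalling between Ptn and Ptprz1 takes part in shaping Purkinje cell dendrites. Cxcl12 from the meninges acts through Cxcr4, a G protein-coupled receptor, to hold granule cell precursors at the cerebellar surface, and Ackr3 is an atypical receptor that takes Cxcl12 up and removes it.

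The coordinates below are those of the deposited table (GRCm38.p6). Ptn (ENSMUSG00000029838.11) lies on the minus strand of chromosome 6 from 36714929 to 36810220, and Cxcl12 (ENSMUSG00000061353.11) on the plus strand of the same chromosome from 117168535 to 117181367. Mdk (ENSMUSG00000027239.14) spans chromosome 2 from 91929805 to 91932297 on the minus strand. Among the receptors, Ptprz1 (ENSMUSG00000068748.7) lies on chromosome 6 from 22875502 to 23052916 (plus strand) and Sdc3 (ENSMUSG00000025743.14) on chromosome 4 from 130792537 to 130826319 (plus strand). Alk (ENSMUSG00000055471.7) spans chromosome 17 from 71868972 to 72604627 on the minus strand. Cxcr4 (ENSMUSG00000045382.6) and Ackr3 (ENSMUSG00000044337.5) are both on chromosome 1, from 128588199 to 128592293 (minus strand) and from 90203980 to 90216751 (plus strand). Sdc3 shares 7.73% of its exonic bases with predicted genes on the opposite strand, and the other 7 genes share none with another gene.

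The 200 bases before the outermost start given by the table or by RefSeq are shown for the genes, of the 6 whose windows were read, that had their lowest mean level on DR, to set their motif content side by side. Sdc3 is the gene left out by this choice, and Mdk and Alk were not read. They are RefSeq promoter sequences of GRCm38.p6, read 5′ to 3′ on the strand of the gene, with motif matches in capitals.
Ptn, chr6:36810221-36810420, minus strand: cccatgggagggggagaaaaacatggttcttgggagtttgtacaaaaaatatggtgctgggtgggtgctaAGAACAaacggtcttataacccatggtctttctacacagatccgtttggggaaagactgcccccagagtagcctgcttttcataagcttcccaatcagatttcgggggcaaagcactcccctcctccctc
Ptprz1, chr6:22875302-22875501, plus strand: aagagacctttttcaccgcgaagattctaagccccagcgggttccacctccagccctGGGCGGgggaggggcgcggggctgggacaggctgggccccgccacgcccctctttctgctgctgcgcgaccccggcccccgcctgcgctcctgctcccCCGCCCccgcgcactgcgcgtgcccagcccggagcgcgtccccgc
Cxcl12, chr6:117168335-117168534, plus strand: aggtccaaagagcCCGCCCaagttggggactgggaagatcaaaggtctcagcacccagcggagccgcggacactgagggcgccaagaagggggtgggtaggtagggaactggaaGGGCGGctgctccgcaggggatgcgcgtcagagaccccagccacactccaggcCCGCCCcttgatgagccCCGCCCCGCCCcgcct
Cxcr4, chr1:128592300-128592499, minus strand: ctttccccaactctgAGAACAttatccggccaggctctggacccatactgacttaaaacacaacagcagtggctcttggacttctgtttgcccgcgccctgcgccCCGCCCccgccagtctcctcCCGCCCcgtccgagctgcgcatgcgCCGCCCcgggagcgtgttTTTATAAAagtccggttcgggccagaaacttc
Ackr3, chr1:90203780-90203979, plus strand: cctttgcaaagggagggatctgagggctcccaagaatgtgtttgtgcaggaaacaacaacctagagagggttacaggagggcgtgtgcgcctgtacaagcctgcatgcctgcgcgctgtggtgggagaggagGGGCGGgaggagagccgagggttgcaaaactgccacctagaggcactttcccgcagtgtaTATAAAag
Motifs were searched on both strands. The window of Ptn held 1 glucocorticoid receptor motif (AGAACA, found in 12.9% of the 32851 windows of this length) and no GC box (GGGCGG, found in 31% of them). Cxcr4 also held 1 glucocorticoid receptor motif, with 3 GC boxes and 2 matches to the TATA box (TATAAA, found in 9.96% of windows) that overlap each other. Cxcl12 held 5 GC boxes, the last pair of which overlap by a base, Ptprz1 held 2, and Ackr3 held 1 together with a TATA box. The hypoxia response core ACGTG, found in 14% of windows, was in none of the 6 windows read, so none of the motifs searched was common to all 5 promoters shown.

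The libraries held 31712084 to 40798644 assigned reads (median 36674269), and no library stood apart in depth. Of the 19052 genes tested between DR and AL, 583 passed, which is 3.06%, meaning an edgeR quasi-likelihood p under 0.05 once adjusted by Benjamini-Hochberg over all of them. At an unadjusted p under 0.05 it was 18%. Of the 583, 331 were lower (1.74% of all genes) and 43.2% were higher on DR, and 57% of 565 were when libraries were scaled by their totals alone. Between KD and AL, 0 of 19036 genes passed (0%), against 928 at an unadjusted p under 0.05 (4.87%) and 10 with DESeq2. Between KD and DR, 942 of 19087 genes passed, which is 4.94%, with 49.2% of them higher on KD, or 37.9% of 993 with scaling by library totals alone. Levels are given as CPM, the reads of a gene after scaling each library to a total of 1000000, and the tissue label was checked with the summed CPM of marker lists. In the AL libraries the Purkinje cell list summed to 8860 to 9476 CPM and the granule cell list to 5594 to 6131, against 67.9 to 77.7 for forebrain excitatory neurons, and no marker was at 0 in every library.

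Ptn was the most abundant of the ligands and lower on DR than on AL or KD in every library. Its levels were 153, 175, 158 and 161 CPM in the AL libraries, 111, 120, 116 and 116 in the DR libraries and 166, 155, 151 and 140 in the KD libraries. The highest DR library was below the lowest library of either other diet, while AL and KD overlapped. The mean of 116 ± 3.41 CPM (SD, n = 4) on DR stood against 162 ± 9.39 on AL, a log2 fold change of -0.48 (SE 0.048, 95% interval -0.58 to -0.38) or a level lower by 28.4%. KD, at 153 ± 10.6 CPM, differed from AL by -0.08 (95% interval -0.19 to 0.03) and from DR by 0.40 (0.30 to 0.51), both as log2 fold changes. These values are the pattern for which Ptn was picked on DR, and the comparisons of DR with AL and with KD share the DR libraries.

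Mdk, the close relative of Ptn, had a narrower spread between diets. Its levels were 27, 27.3, 25.7 and 26.5 CPM on AL, 25.4, 23.8, 23.2 and 24.3 on DR and 26.3, 24.9, 27.7 and 25.3 on KD. All 4 DR libraries were below all 4 AL libraries, though by a narrow gap, and 10.9% of all genes tested had DR and AL ranges that did not overlap. The log2 fold change of -0.14 (SE 0.055, 95% interval -0.25 to -0.02) between DR and AL did not pass (adjusted p = 0.197, edgeR). Neither did the differences of KD from AL (-0.03, adjusted p = 0.994) and from DR (0.11, adjusted p = 0.333). Within each library, the ratio of Ptn to Mdk per kilobase of exon was 2.34 ± 0.118 (SD, n = 4) on AL, 1.85 ± 0.115 on DR and 2.27 ± 0.173 on KD, values that carry the lower Ptn for which the gene was picked.

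Cxcl12 was lower on DR than on AL, with its highest mean on KD. It measured 59.3, 53.2, 52.1 and 67.3 CPM on AL, 41.3, 50.1, 41.2 and 36.3 on DR and 66.8, 69.9, 74.8 and 77.8 on KD. DR lay below AL and KD without overlap (ranges of KD and DR did not overlap for 11.8% of all genes), and KD lay above AL except that the highest AL library exceeded the lowest KD library. The means were 58 ± 6.98, 42.2 ± 5.73 and 72.3 ± 4.9 CPM (SD, n = 4) on AL, DR and KD. DR against AL gave a log2 fold change of -0.46 (SE 0.091, 95% interval -0.65 to -0.26), a level lower by 27.2%. KD against AL gave 0.32 (SE 0.072, 95% interval 0.17 to 0.47), a level 25% higher. The AL and KD means were thus in the other order from those of Ptn, but the AL and KD ranges overlapped for both genes. This order was not tested, and 0 of 19036 genes passed on KD against AL. KD exceeded DR by 0.78 (SE 0.077, 95% interval 0.62 to 0.94), or 1.71-fold. Leaving out each library in turn, the log2 fold change of DR against AL ranged from -0.55 to -0.38 and that of KD against AL from 0.28 to 0.40.

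**Figure D1:**
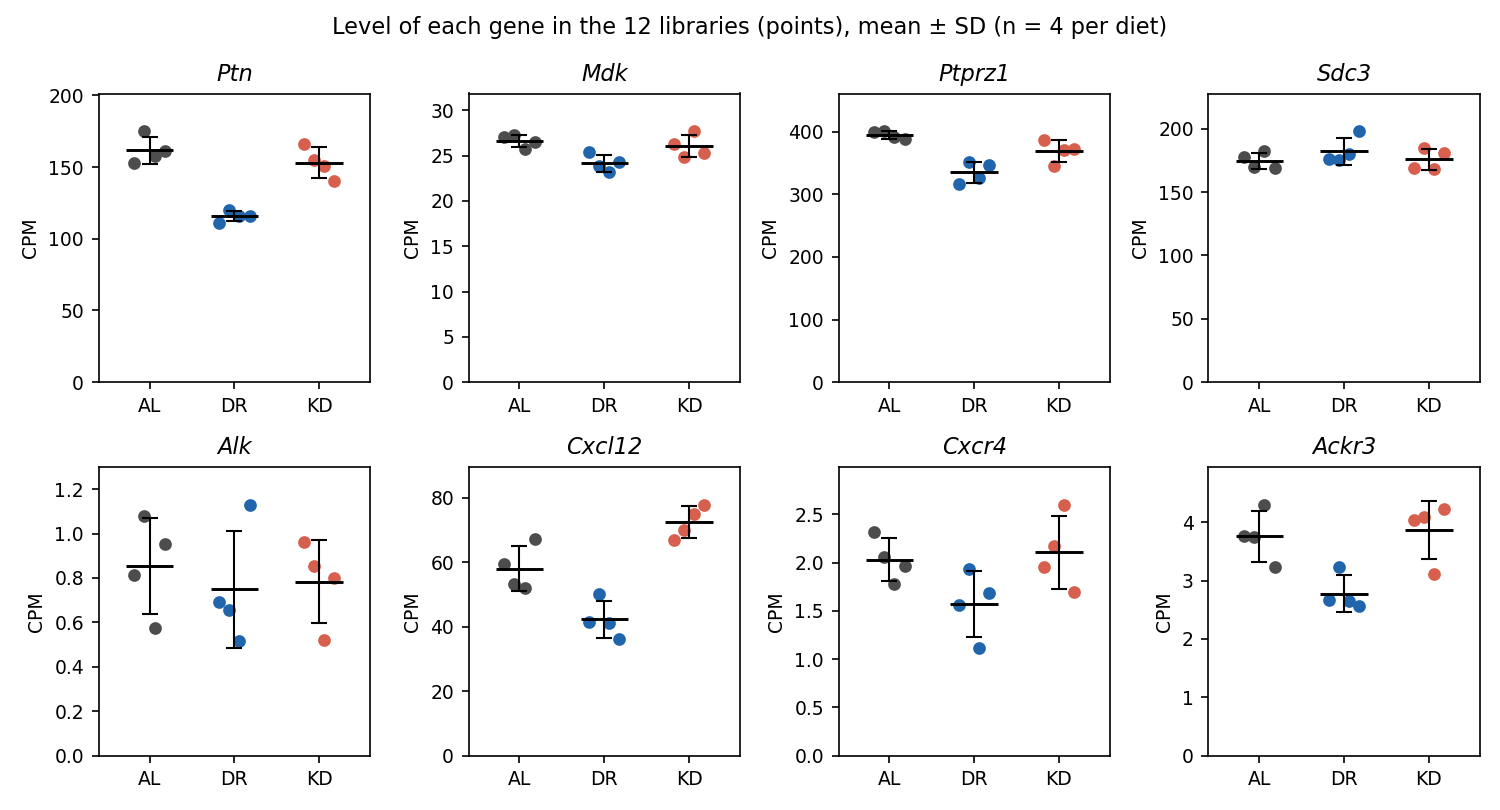
Level of each of the 8 genes in CPM (vertical axis, from 0) in the 4 libraries of each diet, one point a library, with the mean and SD as bars. Ptn and Cxcl12 on DR lie below every AL and KD library, Ptprz1 on DR lies below every AL library, and the points of Sdc3 overlap in all diets.

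Ptprz1, the phosphatase receptor of Ptn and Mdk, was the only one of the 6 tested genes that passed in any comparison, falling by 15.2% on DR. Its levels were 399, 401, 391 and 389 CPM on AL, 317, 351, 326 and 347 on DR and 387, 345, 371 and 373 on KD. Both other diets lay below AL without overlap, and DR and KD overlapped. The log2 fold change between DR (335 ± 16.3 CPM) and AL (395 ± 5.49 CPM, SD, n = 4 each) was -0.24 (SE 0.044, 95% interval -0.33 to -0.14, adjusted p = 0.0113, edgeR). It passed with each library left out in turn, with adjusted p between 0.012 and 0.0452, and under all 5 other settings tried. Thus 1 of the 6 tested genes was called, beside 3.06% of all genes, and 2 of 6 (Mdk and Ptprz1) had DR and AL ranges that did not overlap, beside 10.9% of all genes. KD, at 369 ± 17.3 CPM, differed from AL by -0.10 (95% interval -0.18 to -0.01, adjusted p = 0.981) and from DR by 0.14 (0.04 to 0.24, adjusted p = 0.112), neither of which passed. No overlap between KD and AL was found in 2.96% of all genes tested. Per kilobase, the ratio of Ptn to Ptprz1 was 1.7 ± 0.0912 on AL, 1.44 ± 0.0391 on DR and 1.72 ± 0.128 on KD (SD, n = 4), again with the Ptn level that chose the gene in the ratio.

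Sdc3, the heparan sulfate receptor, did not pass in any comparison. It measured 178, 170, 182 and 169 CPM on AL, 176, 175, 180 and 198 on DR and 169, 185, 168 and 181 on KD, and the 3 ranges overlapped. The log2 fold change of DR against AL was 0.06 with a 95% interval of -0.04 to 0.17 (adjusted p = 0.565, edgeR), an interval that does not reach the lower levels seen for Ptn and Ptprz1. KD differed from AL by 0.01 (-0.08 to 0.10, adjusted p = 0.994) and from DR by -0.05 (-0.16 to 0.05, adjusted p = 0.627). Alk was the least abundant gene, with 18 to 42 reads in a library. Its levels were 0.813, 1.08, 0.574 and 0.951 CPM on AL, 0.69, 0.655, 0.518 and 1.13 on DR and 0.961, 0.856, 0.52 and 0.798 on KD, overlapping throughout. At this depth the 95% interval of DR against AL ran from -0.79 to 0.40 in log2 (adjusted p = 0.78), so a difference of the size seen for Ptn was not detectable for Alk.

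The Cxcl12 receptors Cxcr4 and Ackr3 were scarce and had their lowest means on DR, but neither passed. Cxcr4 had 39 to 95 reads in a library and measured 2.32, 2.06, 1.78 and 1.96 CPM on AL, 1.56, 1.93, 1.12 and 1.68 on DR and 1.95, 2.17, 2.6 and 1.7 on KD. The ranges overlapped in each pair of diets, and the log2 fold change was -0.37 for DR against AL (SE 0.18, 95% interval -0.76 to 0.01, adjusted p = 0.292, edgeR) and 0.42 for KD against DR (0.01 to 0.82, adjusted p = 0.248). Ackr3, with 92 to 164 reads, measured 3.77, 3.74, 4.3 and 3.23 CPM on AL, 2.66, 3.24, 2.65 and 2.56 on DR and 4.03, 4.08, 3.12 and 4.22 on KD. A single DR library, replicate 2, reached the lower end of the AL and KD ranges, and the other DR libraries lay below all of them.

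For Ackr3 the mean of 2.78 ± 0.316 CPM on DR stood against 3.76 ± 0.438 on AL (SD, n = 4), a log2 fold change of -0.44 (SE 0.13, 95% interval -0.73 to -0.16, adjusted p = 0.0898, edgeR). KD, at 3.86 ± 0.502 CPM, exceeded DR by 0.48 (SE 0.13, 95% interval 0.19 to 0.76, adjusted p = 0.0506). Both missed the threshold over all genes. The second lay at its edge, passing without DR replicate 2 (0.56, adjusted p = 0.0352), without KD replicate 3 (0.57, adjusted p = 0.0352) and under 4 of 5 other settings. KD against AL gave intervals of -0.30 to 0.39 for Cxcr4 and -0.23 to 0.31 for Ackr3, with an adjusted p of 0.994 for each. In KD against AL, 0 of the 6 tested genes passed with edgeR or with DESeq2. Only Ptprz1 was under an unadjusted p of 0.05, as were 4.87% of all genes. In KD against DR, 0 of the 6 passed with edgeR, and 3 (Ptprz1, Cxcr4 and Ackr3) were under an unadjusted p of 0.05, as were 18.7% of all genes. DESeq2 called 2 of the 6, beside 1322 of 19087 genes. The ratio of Cxcl12 to Ackr3 per kilobase was 6.44 ± 1.52 on AL, 6.22 ± 0.266 on DR and 7.79 ± 1.39 on KD (SD, n = 4), with overlapping AL and DR ranges.

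**Figure D2:**
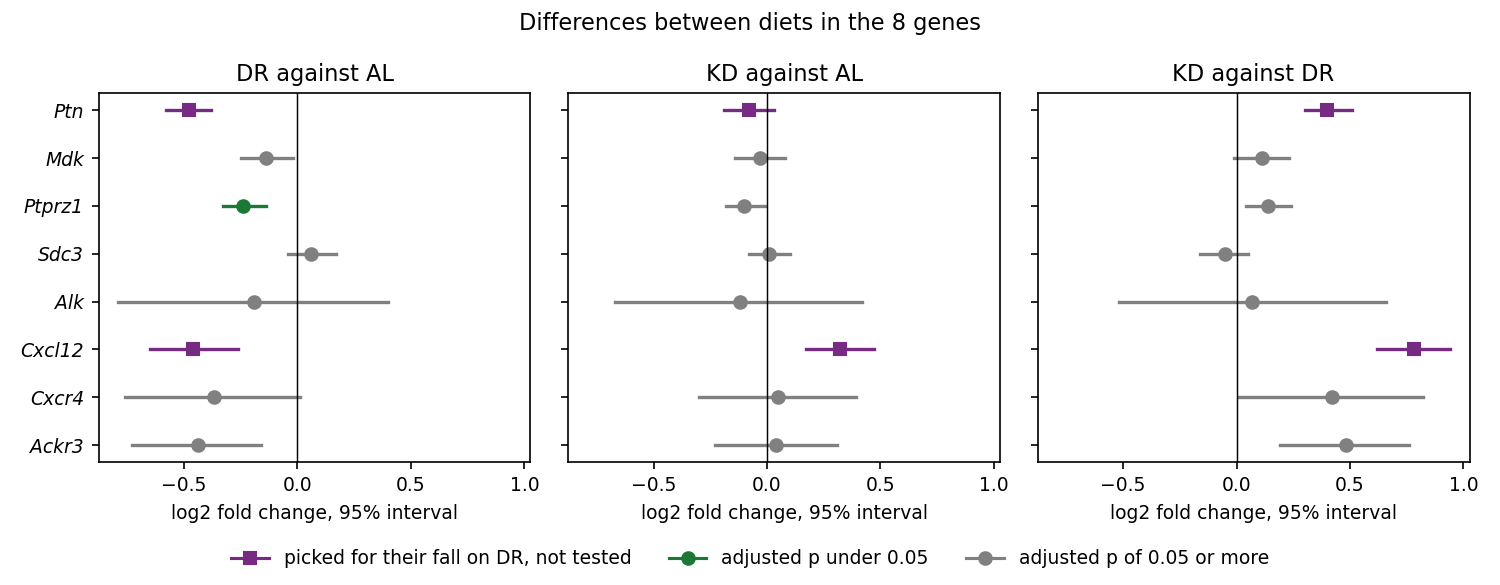
Log2 fold change (horizontal axis) with its 95% interval for the 8 genes in each pair of diets, the named diet first against the second. On DR against AL, Ptn and Cxcl12 lie below 0, the pattern for which they were picked. Of the 6 tested genes all but Sdc3 lie below 0, Alk and Cxcr4 with intervals that cross it. Sdc3 lies at 0.06 with an interval that also crosses 0. The median over all genes is 0.00361.

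Compared per kilobase of exon (RPKM), the 8 genes fell into an order that differed little between diets. On AL the means were 47.1 RPKM for Ptn, 29.2 for Sdc3, 27.7 for Ptprz1, 20.1 for Mdk, 7.09 for Cxcl12, 1.12 each for Ackr3 and Cxcr4, and 0.11 for Alk. The growth factors and their receptors, apart from Alk, were thus more abundant than Cxcl12 in every library, and Cxcl12 in turn exceeded its receptors. On DR the level of Ptn, 33.7 RPKM, came close to that of Sdc3, 30.4, and the ranges of 32.4 to 34.8 and 29.1 to 33.1 overlapped, although Ptn was higher in 4 of 4 libraries. The ranges of Ackr3 and Cxcr4 overlapped on each diet, and their order by mean was not the same in all diets. The ranges of all other neighbours in the order did not overlap on any diet.

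**Figure D3:**
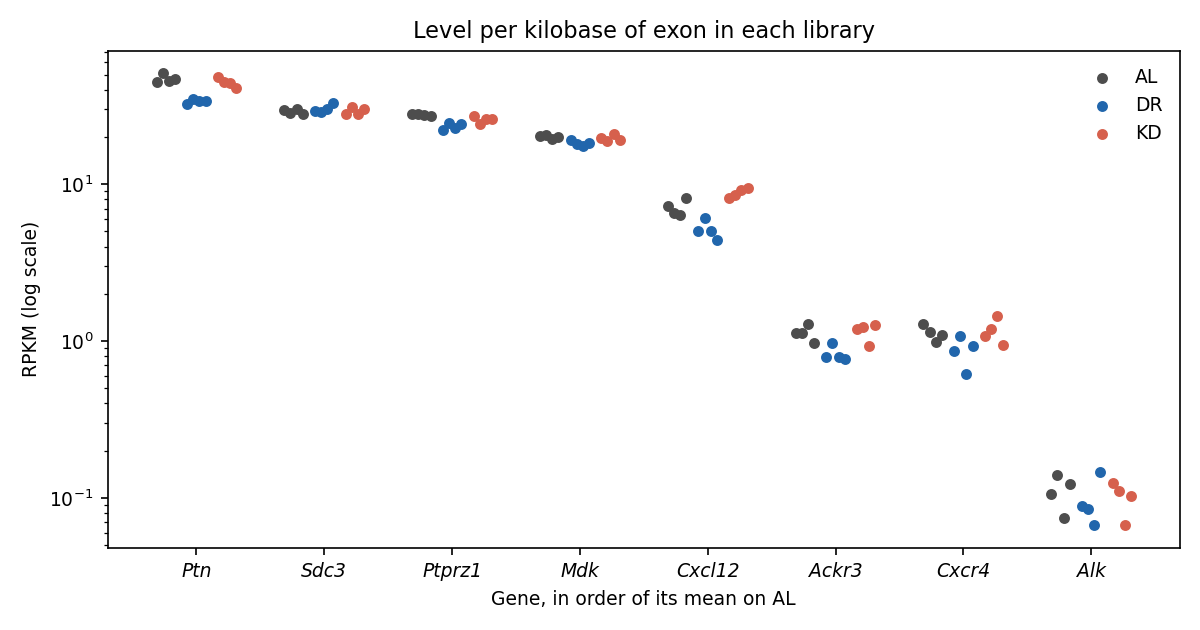
RPKM of each gene in each library on a log scale (vertical axis), with genes in order of their AL mean and libraries coloured by diet. The mean of Ptn is 47.1 RPKM on AL and 33.7 on DR, where it lies next to Sdc3, and Ackr3 and Cxcr4 overlap near 1.12 RPKM on AL.

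A list of 30 further partners of Ptn, Mdk and Alk (other receptors and binding proteins, ligands of Alk, and substrates of Ptprz1) held 28 genes with enough counts. On DR against AL 3 of them, 10.7%, passed, all lower, beside 3.06% of all genes, or 1.74% counting lower genes only. At an unadjusted p under 0.05 there were 10 of the 28, all lower, beside 18% of all genes, or 8.98% counting lower genes only. The partner lists were drawn up with earlier results of these data known, so their shares here and below are descriptions. Tenascin-C (Tnc), a matrix protein that binds Ptprz1, fell from 31.3 ± 3.74 to 13.6 ± 2.16 CPM (SD, n = 4), a log2 fold change of -1.20 (SE 0.11, adjusted p = 5.95e-05, edgeR). Integrin beta 3 (Itgb3), which pairs with integrin alpha V in a receptor for Ptn, fell from 2.39 ± 0.265 to 1.28 ± 0.17 CPM (-0.90, SE 0.16, adjusted p = 0.00942). Both passed with each library left out in turn. Integrin alpha 6 (Itga6), a subunit of a laminin receptor that also binds Mdk, fell by 0.29 on the log2 scale (SE 0.073, adjusted p = 0.0425), a call lost with scaling by library totals alone (adjusted p = 0.0568), kept with AL replicate 3 left out but lost without any of the other 7 libraries, when adjusted p reached up to 0.13. The median of the 28 log2 fold changes was -0.08, with 22 below 0, against a median of 0.00361 over all genes.

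Between KD and AL none of these partners was called. With edgeR, 0 of 28 passed and 2 were under an unadjusted p of 0.05, beside 4.87% of all genes. None passed with DESeq2, and the median was -0.02. On KD against DR 5 passed, 17.9% beside 4.94% of all genes, with a median of 0.08. At an unadjusted p under 0.05, 10 of the 28 were higher on KD and 2 lower, beside 18.7% of all genes. Tnc was higher on KD, at 29.1 ± 2.84 CPM (1.10, SE 0.098, adjusted p = 1.98e-05), and so was its relative tenascin-R (Tnr), a further ligand of Ptprz1, at 187 ± 9.14 against 150 ± 10.8 CPM (0.32, SE 0.053, adjusted p = 0.00272). These 2 calls held with each library left out. Itgb3 (0.69, adjusted p = 0.0433) and the semaphorin and growth factor co-receptor Nrp1 (0.45, adjusted p = 0.044) were also higher and the heparan sulfate receptor Sdc4 lower (-0.23, adjusted p = 0.0279). Those 3 were less secure. Itgb3 passed only without DR replicate 4 or KD replicate 2, Nrp1 only without DR replicate 2, and Sdc4 only without DR replicate 2 or KD replicate 1, among the 8 fits that left out a library, with adjusted p of up to 0.152, 0.15 and 0.0911.

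Of 27 genes around Cxcl12 (other ligands of its receptors, and signalling and trafficking proteins downstream), 25 were tested. Ptk2b, a calcium-responsive tyrosine kinase of the focal adhesion kinase family, was the only one that passed on DR against AL (4% of the list, near the 3.06% of all genes), rising from 1.87 ± 0.291 to 4 ± 0.338 CPM (1.10, SE 0.14, adjusted p = 0.001, edgeR). It was also the only one on KD against DR, where 4.94% of all genes passed, lower on KD at 1.82 ± 0.504 CPM (-1.13, SE 0.17, adjusted p = 0.00134). It passed with each library left out in both, and AL and KD, at -0.03 with a 95% interval of -0.47 to 0.41, were not distinguished. The medians of the list were -0.02, -0.01 and 0.01 on DR against AL, KD against AL and KD against DR. At an unadjusted p under 0.05, 1 of the 25 was higher and 2 lower on DR against AL, beside 18% of all genes. On KD against DR it was 1 higher and 3 lower, beside 18.7% of all genes. On KD against AL, 0 of 25 passed with edgeR or DESeq2, and 3 were under an unadjusted p of 0.05, as were 4.87% of all genes.

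The third list held 38 enzymes that make or trim the heparan and chondroitin sulfate chains on which Ptn, Mdk and Cxcl12 bind. On DR against AL 0 of 36 tested enzymes passed with edgeR. At an unadjusted p under 0.05 there were 7 (6 lower, 1 higher), close to the 18% of all genes. DESeq2 called 2 of the 36, beside 1014 of 19052 genes. On KD against AL it was 0 of 35 with either tool and 2 at the unadjusted p, beside 4.87% of all genes. On KD against DR 3 enzymes passed, 8.33% of the list beside 4.94% of all genes. At an unadjusted p under 0.05, 11 of the 36 were higher on KD and 2 lower, beside 18.7% of all genes. Sulf1, which removes 6-O-sulfates from heparan sulfate outside the cell, was at 31.3 ± 2.9 against 24.6 ± 2.99 CPM (0.35, SE 0.083, adjusted p = 0.0244). The chondroitin sulfotransferases Chst11 (0.21, adjusted p = 0.0316) and Chst15 (0.24, adjusted p = 0.0291) were higher on KD too, and 17.9% of the exonic bases of Chst15 are shared with a gene on the opposite strand. Each of the 3 calls depended on single libraries. Sulf1 was lost without DR replicate 1 or 2 or KD replicate 1 or 4 (adjusted p up to 0.0918), Chst11 without DR replicate 1 or 3 or KD replicate 1, 2 or 3 (up to 0.1), and Chst15 without DR replicate 1 or 2 or KD replicate 1, 3 or 4 (up to 0.098).

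**Figure D4:**
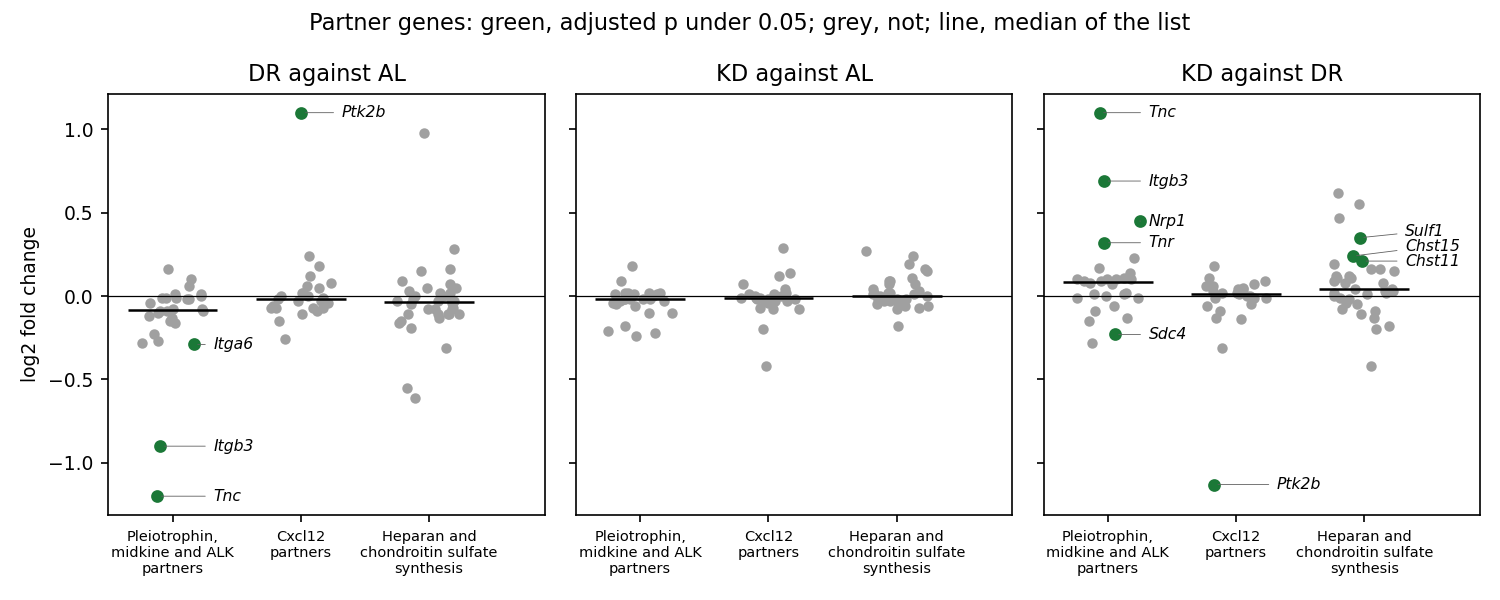
Log2 fold change (vertical axis) of each tested gene of the 3 partner lists in each pair of diets, with genes past an adjusted p of 0.05 in green and the median of each list as a line. Tnc and Itgb3 lie lowest on DR against AL, at -1.20 and -0.90, Ptk2b lies highest at 1.10, and no gene is green on KD against AL.

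Some cell type marker lists had lower sums on DR, and others overlapped with AL. The Bergmann glia and astrocyte list, which marks the glia known to express Ptn and Ptprz1, summed to 3015 to 3163 CPM on AL, 2679 to 2810 on DR and 2902 to 3061 on KD. DR did not overlap with either other diet, and its mean was 89.4% of AL. All 10 of its markers were below 0 in log2 on DR against AL, with a median of -0.16, and 4 passed, beside 3.06% of all genes. Among these were the water channel Aqp4 (-0.52, adjusted p = 0.000706, edgeR), the fatty acid-binding protein Fabp7 (-0.58, adjusted p = 0.0284) and the connexin Gja1 (-0.24, adjusted p = 0.0124). The fourth, the homeodomain gene Hopx, had -0.47 (adjusted p = 0.00143), and 27.2% of its exonic bases are shared with an antisense gene. The Fabp7 call was lost without AL replicate 1, 2 or 4 or DR replicate 2, with adjusted p up to 0.0968. The glutamate transporter Slc1a3, at 1180 ± 47.5 against 1320 ± 41.9 CPM, had -0.16 (adjusted p = 0.0749), as did S100b (adjusted p = 0.209). The other 4 markers were nearer 0, with -0.05 for Slc1a2, -0.09 for Gfap and -0.08 each for Gdf10 and Aldh1l1, and none of them passed. In bulk tissue fewer cells of a type and less RNA per cell cannot be told apart, and the part of these markers in the levels of Ptn and Ptprz1 was not tested.

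Other lists were also lower on DR in their sums. The Purkinje cell list summed to 7535 to 8687 CPM on DR, 88% of the AL mean. Of its 10 markers 9 were below 0 in log2 on DR against AL, with a median of -0.15. Among them Car8 passed (-0.25, adjusted p = 0.0327, edgeR) and the abundant Itpr1 had -0.22 (adjusted p = 0.0869). Rgs8 had -0.18, and Calb1 and Slc1a6 had -0.15 each. Ppp1r17 and Pcp4 (-0.07 each), Pcp2 (-0.04) and Pvalb (0.07) were nearer 0. The Car8 call was lost without AL replicate 1, 2 or 4 or DR replicate 2 or 3, with adjusted p up to 0.108. The oligodendrocyte precursor list, of another cell type that expresses Ptprz1, summed to 89.9 to 101 CPM on DR against 102 to 119 on AL, or 85.1%. All 8 of its markers were below 0 in log2 on DR against AL, with a median of -0.17. Gpr17 passed (-0.53, adjusted p = 0.00725, edgeR). Matn4 had -0.58 (adjusted p = 0.0929), Sox10 -0.44 (adjusted p = 0.0608) and Cspg4 -0.29 (adjusted p = 0.279). Pdgfra and Olig1 (-0.04 each), Olig2 (-0.06) and Lhfpl3 (-0.01) were near 0.

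Among cells known to express Cxcl12 in brain, meningeal fibroblast markers summed to 61 to 76.8 CPM on AL, 54.4 to 77.7 on DR and 63.2 to 76.3 on KD, with overlap throughout. Endothelial markers summed to 198 to 234, 207 to 213 and 218 to 228 CPM on AL, DR and KD. AL overlapped with both other diets, whereas Cxcl12 on DR lay below AL. KD lay above DR without overlap, as for Cxcl12 and for the Purkinje cell, Bergmann glia and oligodendrocyte precursor lists. The means of the endothelial list were 96.9% of AL on DR and 103% on KD. Between KD and DR 0 of its 8 markers passed with edgeR. At an unadjusted p under 0.05 there were 3, beside 18.7% of all genes. The mural cell list was below AL without overlap on DR (91.3% of AL) and on KD (92%). The choroid plexus list overlapped between all diets. The microglial list reached 95.1% of AL on DR without overlap, and the oligodendrocyte (91%), molecular layer interneuron (94.9%), granule cell (102%) and forebrain neuron (102%) lists overlapped with AL. The part of these lists in the 8 genes was not tested.

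**Figure D5:**
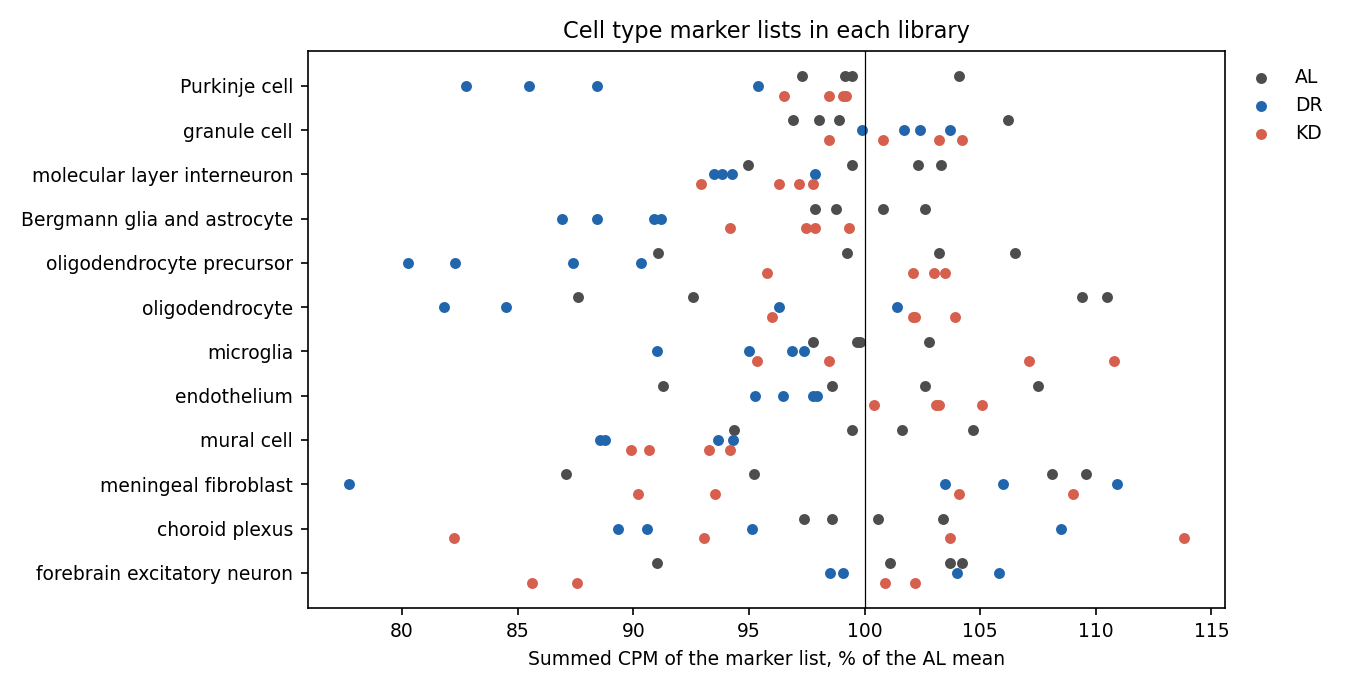
Summed CPM of each cell type marker list in each library, as a percentage of the AL mean of that list (horizontal axis), with diets in separate colours. The Purkinje cell, Bergmann glia and oligodendrocyte precursor lists on DR lie to the left of every AL and KD library, with means of 88, 89.4 and 85.1%, while the meningeal fibroblast list overlaps in all diets.

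The genes whose levels across the 12 libraries were most like those of Ptn, by Pearson correlation of log2 CPM over 15476 genes, were Aqp4 (r = 0.96), Alpk2, Shisa9, Fhod3 and Gm13304 (r = 0.95 each). Aqp4 had means of 196, 137 and 186 CPM on AL, DR and KD, the same order as Ptn. After the mean of each diet was subtracted, r was 0.77 with Aqp4, 0.66 with Alpk2, 0.36 with Shisa9, 0.60 with Fhod3 and 0.78 with Gm13304, so part of the likeness lay between and part within diets. For Cxcl12 the closest were Ywhae (0.95), Adamts1 (0.93), Trib2 (0.93), Rarg (0.92) and Qdpr (0.92). The extracellular protease Adamts1 had means of 21.9, 15.8 and 23.6 CPM on AL, DR and KD, with KD highest as for Cxcl12, and r = 0.78 within diets. Among the 8 genes, Ptn and Ptprz1 had r = 0.86 (0.35 within diets) and Ptn and Cxcl12 0.70, which turned to -0.25 within diets. These are descriptions over 12 libraries that share diets and scaling, and of the 5 closest genes none was among the 5 closest after the diet means were subtracted, for either ligand.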

How the data were processed

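The deposited table holds raw read counts per gene, with the summed exon length of each gene in bases. According to the submitters' processing notes and the methods of the study, the authors trimmed paired-end reads with Trimmomatic 0.39, aligned them with STAR 2.7.0f to GRCm38.p6 and counted them with featureCounts (Subread 1.6.4). The strand setting was not given in the sources used here, and the kit does not mark strand, so reads of overlapping genes cannot be told apart. Symbols came from GENCODE by gene identifier.

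A fit was made for every pair of diets from its 8 libraries in edgeR 4.0.16 (filterByExpr with a minimum count of 10 and total of 15, TMM scaling, quasi-likelihood F-test, Benjamini-Hochberg over all genes tested, threshold 0.05, no covariate). SE is the size of the log2 fold change divided by the root of F. CPM and RPKM used TMM over all 12 libraries, and log2 CPM a prior count of 2. The 18 replicate pairs within diets differed by a chi-square of 4.95 to 11.6 a gene, more than sampling noise.

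The 8 genes and the lists were chosen with earlier results of these data known. Named are the 8 genes, partner genes past the threshold (at most 6 a list and comparison), and the 5 genes most correlated with Ptn and with Cxcl12 at a mean of 1 CPM or more. Markers named beside a result were chosen after their values were seen. Alternatives were other scalings, DESeq2 1.42.0, no filter, a fit of all 12 libraries and leaving out each library. The edgeR script was tested on simulated data. The result of a single marker gene is not reported here.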

Additional observations from a re-analysis of the deposited data

Results flagged for a closer look

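Ackr3 on DR was the single group of 27 tested, 24 of them groups of the 8 genes, in which a library lay far from the others. DR replicate 2 had 3.24 CPM and the other DR libraries 2.56 to 2.66 CPM, and the gap took a share of 0.855 of the range, above the 95% critical value of Dixon's test for 4 libraries. Chance alone passes this limit in about 1 of 20 groups. Without this library, the log2 fold change of Ackr3 was -0.52 for DR against AL (adjusted p = 0.072, edgeR) and 0.56 for KD against DR (adjusted p = 0.0352).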

How the results depend on the processing

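On DR against AL, Ptprz1 was the 1 called gene of the 6 tested under all settings and with each library left out. The count over all genes, 583 of 19052, became 1014 of 19052 with DESeq2. It was 1258 of 35284 without the filter, where more genes were tested, and 862 of 19557 with all 12 libraries in one fit. When a library was left out it was 235 to 712, falling by over 1.5 times without AL replicate 1, 2 or 4 or DR replicate 1 or 3. The 3 calls among the partners of Ptn became 5 with DESeq2, 6 without the filter and 5 with all 12 libraries in one fit, 4 with DESeq2 size factors and 2 with library size alone, where Itga6 had an adjusted p of 0.0568. The 1 call among the Cxcl12 partners became 2 with DESeq2, and the 0 sulfate enzymes 2 with DESeq2, without the filter or with all 12 libraries.

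On KD against AL, the count over all genes of 0 became 10 with DESeq2 and 0 to 6 when a library was left out. Without the filter 118 of 35236 genes passed, 1 of them a partner of Ptn. On KD against DR, 942 of 19087 became 1322 of 19087 with DESeq2, 1503 of 35453 without the filter and 949 of 19557 with all 12 libraries. With a library left out it was 467 to 946, falling by over 1.5 times without DR replicate 3 or KD replicate 1, 3 or 4. The 0 of 6 tested genes became 1 (Ackr3) with DESeq2 size factors (adjusted p = 0.0488), without the filter (0.0244) and with all 12 libraries (0.0399), and 2 with DESeq2 (Ackr3, 0.0245, and Ptprz1, 0.0474), and 0 to 1 with a library left out. With a library left out, 2 to 4 partners of Ptn and 0 to 3 sulfate enzymes passed. The causes were not tested.

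Differences near 0 changed sign when a library was left out. The log2 fold change of KD against AL then ranged from -0.02 to 0.03 for Sdc3, -0.27 to 0.03 for Alk, -0.07 to 0.13 for Cxcr4 and -0.02 to 0.13 for Ackr3, and that of KD against DR from -0.07 to 0.33 for Alk. Reads limit Alk, Cxcr4 and Ackr3, whose intervals are the widest of the 8 genes. Of the 5 genes most like Ptn, 1 was also among the 5 by Spearman correlation, and 3 of those for Cxcl12. No paired analysis was possible because the labels give no replicate numbers shared between diets.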
